A study of Mus musculus with 6 samples.

Results

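The Schlafen genes are a family of growth-regulating genes that lie in a tight cluster on mouse chromosome 11. The members described here are the 7 protein-coding genes Slfn1, Slfn2, Slfn3, Slfn4, Slfn5, Slfn8 and Slfn9, chosen by their gene symbols out of 54532 annotated genes in the deposited tables. All 7 were present, and 6 of them were among the 10540 genes with a mean level of at least 1 FPKM (fragments scaled to exon length and to the mapped fragments of the library) over the 6 libraries. Slfn1 was below that limit.

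RNA was sequenced from immortalized bone marrow-derived macrophages (iBMDMs), a macrophage cell line made from mouse bone marrow with retroviruses that carry the oncogenes v-raf and v-myc. The 3 control libraries came from cells infected with a lentivirus for a control short hairpin RNA (shControl), and the 3 PGAM5 knockdown (KD) libraries from cells with a hairpin against Pgam5, which encodes a phosphatase of the mitochondria. Both groups had been exposed to lipopolysaccharide (LPS), the bacterial ligand of TLR4, at 100 ng/ml for 4 hours, so every value below is a level after LPS, and untreated cells were not analysed here. The comparison asks how Schlafen mRNAs differ between LPS-treated cells with and without normal Pgam5 levels. The sources used here do not say whether more than 1 hairpin or more than 1 infected line was used per group, and differences between such lines cannot be told apart from knockdown. They also do not say whether the 3 libraries of a group were separate cultures, so p-values measure only the spread between these libraries, which may be technical.

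Schlafen proteins share a core domain that binds RNA and, in several members, cleaves or protects transfer RNA. Mouse members are sorted by length. The short group I holds Slfn1 and Slfn2, the intermediate group II holds Slfn3 and Slfn4, and the long group III, whose proteins carry a helicase-like part at the carboxyl end, holds Slfn5, Slfn8 and Slfn9. Many of them are induced by type I interferon, which macrophages release when LPS engages TLR4. In the annotation the longest coding transcripts encoded 337 codons for Slfn1 and 378 for Slfn2, 640 for Slfn3 and 602 for Slfn4, and 884 for Slfn5 and 910 each for Slfn8 and Slfn9.

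The libraries held 18163464 to 24388917 fragments, as recovered from the FPKM values and exon lengths. Pgam5, the gene targeted, measured 17.1, 13.0 and 13.4 FPKM with shControl against 4.33, 5.75 and 4.53 FPKM after knockdown (log2 fold change -1.40, SE 0.13, limma adjusted p = 0.000358). Of 8 macrophage markers, 7 had a mean of at least 1 FPKM and Mertk, a receptor for apoptotic cells, was listed at 0 throughout. These 7 moved in both directions, and their part in the Schlafen results was not tested. Fcgr1, Adgre1, Itgam and Cd14 rose (log2 fold changes 1.51, 0.85, 0.68 and 0.56), and Csf1r, Lyz2 and Cd68 fell (-0.64, -0.40 and -0.20). The summed level, to which Lyz2 gave the largest part, was 2802 to 2894 FPKM in control and 2526 to 2545 FPKM in KD libraries. None of 8 neutrophil, 8 T and NK cell, 5 B cell, 5 fibroblast or 5 megakaryocyte markers had a mean of 1 FPKM. The neutrophil markers summed to between 0 and 0.232 FPKM in control and between 0.145 and 0.568 FPKM in KD libraries, with S100a9, Ly6g, Mpo, Elane and Ltf at 0 everywhere. The T and NK cell markers, which bear on Slfn1 and Slfn2 as genes of lymphocytes, summed to at most 0.0725 FPKM in control and 0.158 FPKM in KD libraries. In bulk RNA, fewer cells with a transcript and less of it per cell cannot be told apart.

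The promoters fall into 2 kinds by their letters. All 7 members have an entry in the RefSeq promoter table (GRCm38.p6), which gives 250 bases before and 50 bases after each start. The listed start of Slfn5 lies inside the gene as annotated for the levels, which begins at 82951349. The 250 bases of Slfn5 are therefore within that gene, and the bases before 82951349 were not searched. Slfn4 and Slfn3 are close relatives whose levels differed in response, and Slfn5 and Slfn9 are long members that also differed. Below are the 250 bases before their listed starts. Each is written 5′ to 3′ on the strand of the gene, and the capitals mark a shared motif: ACTTCCTGG in Slfn4 and Slfn3, and the core of the interferon-stimulated response element (ISRE) in Slfn5 and Slfn9.
Slfn4, chr11:83174936-83175185, plus strand: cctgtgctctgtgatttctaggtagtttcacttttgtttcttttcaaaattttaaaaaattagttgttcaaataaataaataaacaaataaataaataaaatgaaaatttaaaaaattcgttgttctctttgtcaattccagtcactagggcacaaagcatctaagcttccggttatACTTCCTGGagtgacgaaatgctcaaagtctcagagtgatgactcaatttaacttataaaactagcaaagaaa
Slfn3, chr11:83191080-83191329, plus strand: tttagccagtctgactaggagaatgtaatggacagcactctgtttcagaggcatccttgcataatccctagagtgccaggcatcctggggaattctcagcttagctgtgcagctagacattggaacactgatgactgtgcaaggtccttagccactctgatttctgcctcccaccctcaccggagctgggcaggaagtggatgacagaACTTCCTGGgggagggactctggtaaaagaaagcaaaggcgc
Slfn5, chr11:82951852-82952101, plus strand: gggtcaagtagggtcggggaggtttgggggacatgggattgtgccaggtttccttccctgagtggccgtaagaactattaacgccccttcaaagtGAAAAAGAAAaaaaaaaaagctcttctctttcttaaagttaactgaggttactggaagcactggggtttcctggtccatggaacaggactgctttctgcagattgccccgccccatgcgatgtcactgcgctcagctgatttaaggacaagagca
Slfn9, chr11:82991831-82992080, minus strand: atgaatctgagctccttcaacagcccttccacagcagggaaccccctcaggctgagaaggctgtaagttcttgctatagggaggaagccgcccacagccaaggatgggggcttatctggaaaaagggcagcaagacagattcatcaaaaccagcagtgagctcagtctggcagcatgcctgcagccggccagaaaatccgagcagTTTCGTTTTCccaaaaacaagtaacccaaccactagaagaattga

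The ISRE core, searched on both strands as GAAA, any 2 bases and GAAA, is the element read by the interferon-activated factor ISGF3 and by interferon regulatory factors. It was present in Slfn5 at positions -155 to -146 from the RefSeq start, which is inside the gene as annotated for the levels. In Slfn9 the core stood at -45 to -36. In Slfn8 it was at -48 to -39 from 1 of its 2 listed starts and -136 to -127 from the other. It stood in 3.44% of all 32851 promoters of 300 bases. It was not present in the windows of Slfn1, Slfn2, Slfn3 or Slfn4. Those 4 genes instead held ACTTCCTGG, at -74 to -66 in Slfn1, -55 to -47 in Slfn2, -42 to -34 in Slfn3 and -73 to -65 in Slfn4. This run of letters was picked after the sequences had been read, contains the TTCC core that ETS factors recognize on the opposite strand, and stood in 0.843% of all promoters. The GAS element TTCNNNGAA, the gamma-interferon activated site, was in 8.3% of all promoters and in none of the 7 members. A TATAAA box, found in 13.6% of promoters, stood at -19 to -14 in Slfn4. An NF-kB site, found in 8.46%, stood in Slfn1 and Slfn9. Matches of different motifs did not overlap in the 7 members. Members with the ISRE core and members with ACTTCCTGG both included genes that rose and genes that did not pass the test, as described next.

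Of the 6 members tested, 3 rose in PGAM5 KD cells (Slfn2, Slfn4 and Slfn5), none fell, and 3 did not pass the test (Slfn3, Slfn8 and Slfn9). The test was limma on log2(FPKM + 1) across all 10540 genes, called at an adjusted p below 0.05. By that call 31.7% of all genes tested differed, 16.8% higher and 14.9% lower, so a change as such was common in these libraries. The called genes were 52.9% higher ones with the deposited scaling and 32.3% with every library scaled to the same FPKM sum, and the 3 Schlafen calls were made under both. The 3 KD values lay above all 3 control values for the same 3 members and for 24.2% of all genes tested. The median log2 fold change was 0.16 over the 6 members and 0.013 over all genes tested. None of the 6 tested members reached an absolute log2 fold change above 1 on this scale, which 1.32% of all genes did together with the adjusted p.

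**Figure D1:**
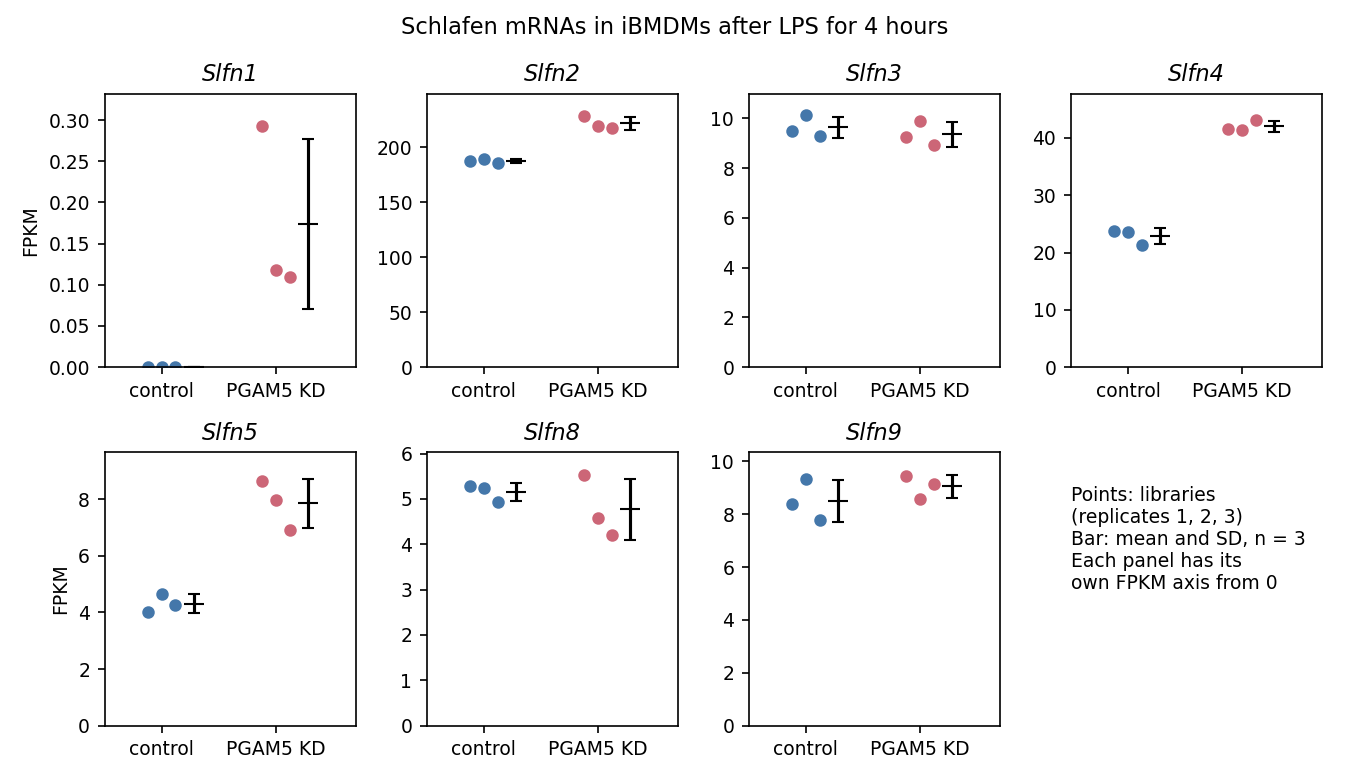
Levels of the 7 Schlafen mRNAs in FPKM, 1 panel per gene with its own axis from 0, with a point for each of 3 control and 3 PGAM5 KD libraries and the mean with SD beside them. The KD points of Slfn1, Slfn2, Slfn4 and Slfn5 lie above all control points, and those of Slfn3, Slfn8 and Slfn9 overlap them.

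The levels spanned a wide range. In control cells the order from high to low was Slfn2, Slfn4, Slfn3, Slfn9, Slfn8, Slfn5 and Slfn1. Slfn3 and Slfn9 overlapped there, and the other neighbours in the order did not. In PGAM5 KD cells Slfn5 stood above Slfn8 in every library, whereas it had been below Slfn8 in every control library. Slfn3 and Slfn9, and Slfn9 and Slfn5, overlapped in the KD group.

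Among the short members, Slfn2 was the dominant Schlafen mRNA of these cells. Slfn2 (ENSMUSG00000072620, chr11:83065112-83070678, plus strand) maintains quiescence and survival of T cells and monocytes and binds transfer RNA. Control libraries held it at 187.5, 189.2 and 185.9 FPKM, and KD libraries at 228.5, 219.1 and 217.8 FPKM. All KD values lay above all control values, and the means were 187.5 ± 1.67 and 221.8 ± 5.82 FPKM (SD, n = 3 each). The ratio of 1.18 was small but well beyond the spread (log2 fold change 0.24, SE 0.03, limma adjusted p = 0.00135). Only 2.06% of the genes tested had a higher mean level than Slfn2, and 5668 to 8839 fragments lay behind each value. Its size depended on the scaling: with quantile normalization the log2 fold change was 0.12 (limma adjusted p = 0.0322).

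Slfn1 (ENSMUSG00000078763, chr11:83116849-83122670, plus strand), which arrests the growth of thymocytes when it is expressed in excess, was nearly silent. It was listed at 0 in all 3 control libraries and at 0.293, 0.118 and 0.110 FPKM in the KD libraries. These rest on 12, 4 and 5 fragments. Over the groups that is 21 of 64530208 fragments (95% Poisson interval of the count 13.0 to 32.1, counting error only) against 0 of 57867752. Set against the limit of 3 fragments over the control group, or 0.0278 FPKM, the pooled KD level of 0.175 FPKM was 6.28 times as high. With the lower Poisson limit of the KD count it was 3.89 times as high, and without KD replicate 1, which held 12 of the fragments, 4.08 times. The groups did not overlap, and the exact two-sided permutation test gave p = 0.1, the smallest that 3 libraries against 3 allow. The gene was too low to enter the test across all genes.

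The intermediate members parted: Slfn4 rose and its neighbour Slfn3 did not pass the test. Slfn4 (ENSMUSG00000000204, chr11:83175186-83190216, plus strand) is a myeloid gene that interferon and TLR ligands induce and that falls as monocytes mature to macrophages. It was at 23.8, 23.7 and 21.4 FPKM in control libraries and at 41.6, 41.4 and 43.1 FPKM in KD libraries. The KD values were tightly grouped and all lay above the controls, with means of 22.9 ± 1.38 and 42.0 ± 0.963 FPKM (SD, n = 3 each) and a ratio of 1.83. The log2 fold change was 0.85 (SE 0.05, limma adjusted p = 6.63e-05), and 1.58% of all genes tested had a larger positive one. Between 1653 and 4170 fragments lay behind each value.

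Slfn3 (ENSMUSG00000018986, chr11:83191330-83215154, plus strand), known from differentiation of the intestinal epithelium, begins 1113 bases after the end of Slfn4 on the same strand. It was at 9.49, 10.1 and 9.31 FPKM in control and at 9.26, 9.89 and 8.93 FPKM in KD libraries. The groups overlapped, with a log2 fold change of -0.04 (95% interval -0.17 to 0.096, limma adjusted p = 0.639). That interval lies below the interval of Slfn4, which was 0.73 to 0.97. The coding parts of Slfn3 and Slfn4 matched at 92.9% of 1680 aligned bases, so fragments could be assigned to the wrong gene of the pair. Over a shorter stretch of 379 aligned bases, Slfn2 matched Slfn3 at 95.25% and Slfn4 at 94.72%. The sum of the pair given below does not cover fragments misassigned from or to Slfn2. Few 100-base windows of their longest coding transcripts were shared exactly with another gene, 0.285% for Slfn4 and 4.93% for Slfn3. For Slfn3 the other gene was the pseudogene Gm11427 downstream of it. That transcript of Slfn3 holds 1966 bases, so the rest of its 3411 exon bases was not searched. A fragment misassigned within the pair changes their summed FPKM only through the exon lengths, 3411 bases for Slfn3 and 3964 for Slfn4. That sum was 32.6 ± 1.68 FPKM in control and 51.4 ± 0.625 FPKM in KD libraries (SD, n = 3 each), 1.58 times as high (exact two-sided permutation p = 0.1).

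**Figure D2:**
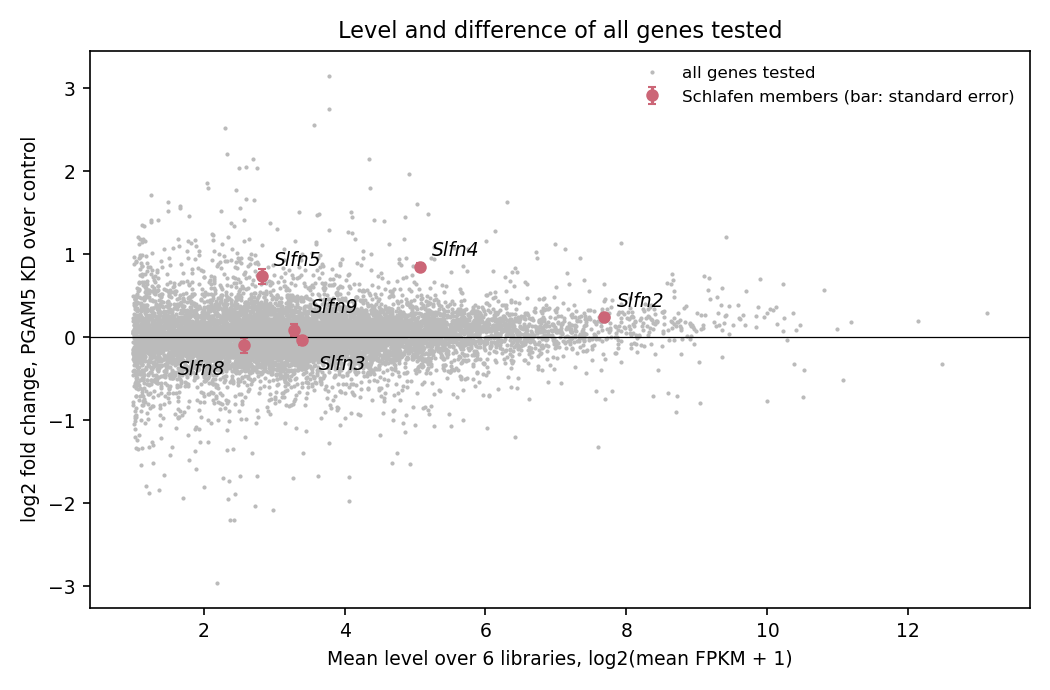
Log2 fold change of PGAM5 KD over control against the mean level, log2(mean FPKM + 1), for all 10540 genes tested (grey) and the 6 Schlafen members tested (red, bar: SE). Slfn4 at 0.85 and Slfn5 at 0.73 lie above most of the cloud, with 1.58% and 2.16% of all genes tested higher. Slfn2 at 0.24 lies far to the right, and Slfn3, Slfn8 and Slfn9 lie near 0.

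Among the long members, only Slfn5 passed the test. Slfn5 (ENSMUSG00000054404, chr11:82951349-82964840, plus strand) is a nuclear, interferon-induced member that can repress transcription. Its level was 4.00, 4.66 and 4.27 FPKM in control libraries and 8.64, 7.98 and 6.92 FPKM in KD libraries. The KD values spread more widely than the controls but none reached down to them, with means of 4.31 ± 0.331 and 7.85 ± 0.866 FPKM (SD, n = 3 each) and a ratio of 1.82. The log2 fold change was 0.73 (SE 0.09, limma adjusted p = 0.00124), and 2.16% of all genes tested had a larger positive one. Its depth was 460 to 1201 fragments per library. The antisense transcript Slfn5os covers 559 exon bases of Slfn5, or 8.84%, and was listed at 0 in all 6 libraries. The protocol names both a directional and a non-directional kit, so fragments of the 2 genes may not be separable in that stretch.

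Slfn8 and Slfn9 are mouse relatives of human SLFN11, a protein that blocks replication forks under DNA damage and cleaves transfer RNA. Slfn8 (ENSMUSG00000035208, chr11:83002158-83020810, minus strand) was at 5.29, 5.25 and 4.93 FPKM in control and at 5.52, 4.59 and 4.21 FPKM in KD libraries. The KD libraries surrounded the controls on both sides, with a log2 fold change of -0.099 (95% interval -0.31 to 0.12, limma adjusted p = 0.451). Slfn9 (ENSMUSG00000069793, chr11:82978390-82991830, minus strand) was at 8.38, 9.32 and 7.76 FPKM in control and at 9.45, 8.57 and 9.13 FPKM in KD libraries. These groups overlapped too (log2 fold change 0.086, 95% interval -0.086 to 0.26, limma adjusted p = 0.411). The pair matched at 92.7% of 2730 aligned coding bases, and its sum was 13.6 ± 0.936 FPKM in control and 13.8 ± 0.995 FPKM in KD libraries (SD, n = 3 each, exact two-sided permutation p = 0.8). Both intervals lie below that of Slfn5, which was 0.52 to 0.94.

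Of the other annotated Schlafen genes, only Slfn10-ps was high enough to be tested, and it did not follow Slfn4 and Slfn5. Slfn10-ps, a transcribed pseudogene beside Slfn8 with 93% coding identity to Slfn9, fell. It was at 10.4, 11.3 and 10.6 FPKM in control and at 8.85, 8.59 and 8.49 FPKM in KD libraries, without overlap (log2 fold change -0.29, SE 0.05, limma adjusted p = 0.00568). With it added, the sum of Slfn8, Slfn9 and Slfn10-ps was 24.4 ± 1.32 FPKM in control and 22.5 ± 1.17 FPKM in KD libraries (SD, n = 3 each, exact two-sided permutation p = 0.2). Slfn14, a gene of platelets and red cell precursors, had 1 fragment in 1 control library and none elsewhere. Slfnl1, a Schlafen-like gene on chromosome 4, was listed at 0 in every library.

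Summed over the family, Schlafen mRNA was higher in every KD library than in any control library, and its makeup differed. The 7 members together were at 238.5, 242.2 and 233.5 FPKM in control and at 303.2, 291.7 and 290.2 FPKM in KD libraries, a ratio of 1.24 with no overlap (exact two-sided permutation p = 0.1, the smallest possible). Slfn2 made up 78.8% ± 0.755 of that sum in control cells and 75.2% ± 0.160 in KD cells (SD, n = 3 each), so its share was lower although its level had risen. The share of Slfn4 went from 9.64% ± 0.437 to 14.3% ± 0.578 and that of Slfn5 from 1.81% ± 0.124 to 2.66% ± 0.242 (SD, n = 3 each). Slfn3 held 4.05% and then 3.17%, Slfn9 3.56% and then 3.07%, and Slfn8 2.17% and then 1.61%. None of these shares overlapped between the groups, and each exact two-sided permutation test gave p = 0.1, the smallest possible. The levels of 47.1% of all genes tested did not overlap either, which is not a like measure for shares. The shares add up to the whole, so a member can lose share with no change in its own level, and the levels of Slfn3, Slfn8 and Slfn9 overlapped. Counted in fragments, which weights long transcripts more, the KD minus control difference in share was larger for Slfn4 (7.12 percentage points against 4.62 in FPKM), Slfn5 (2.08 against 0.85), Slfn3 (-1.53 against -0.87), Slfn8 (-1.12 against -0.55) and Slfn9 (-1.64 against -0.49), each in the same direction. A single scaling factor per library leaves these shares and ratios unchanged, whereas quantile normalization does not.

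The ratio of Slfn4 to its neighbour Slfn3 showed the unequal change within single libraries. It was 2.51, 2.34 and 2.29 in control libraries and 4.49, 4.18 and 4.83 in KD libraries. The ratio of Slfn9 to Slfn5 was 2.09, 2.00 and 1.82 in control and 1.09, 1.07 and 1.32 in KD libraries, so Slfn9 exceeded Slfn5 in every library, but by less in the KD group. Slfn5 against Slfn8 went from 0.757, 0.889 and 0.865 to 1.57, 1.74 and 1.64. The groups did not overlap in any of these 3 ratios, and each had an exact two-sided permutation p of 0.1. In contrast, the ratio of Slfn4 to Slfn5, the 2 tested members with the largest log2 fold changes, was 5.95, 5.07 and 5.01 in control and 4.81, 5.18 and 6.23 in KD libraries, and the groups overlapped (exact two-sided permutation p = 0.8). Slfn9 to Slfn8 was 1.58, 1.78 and 1.57 against 1.71, 1.87 and 2.17 and overlapped as well (exact two-sided permutation p = 0.2). Of the 15 ratios between the 6 tested members, 10 had no overlap between the groups, and 11 had none on log2(FPKM + 1). The levels of 47.1% of single genes had none, but that is not a like measure. The share among ratios of other gene pairs was not computed. The ratios were chosen after the data had been seen and share genes among themselves.

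**Figure D3:**
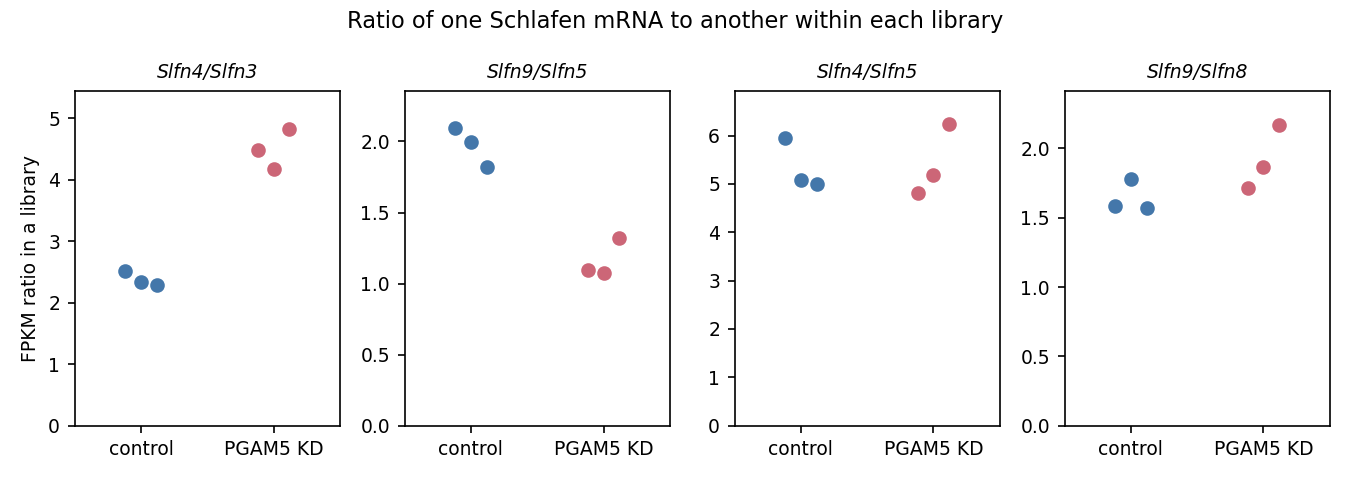
Ratio of the FPKM of a Schlafen mRNA to that of another within each library, for 4 pairs, with 1 point per library and axes from 0. Slfn4/Slfn3 lies at 2.29 to 2.51 in control and 4.18 to 4.83 in KD libraries, Slfn9/Slfn5 lies at 1.82 to 2.09 and at 1.07 to 1.32, and Slfn4/Slfn5 and Slfn9/Slfn8 overlap between the groups.

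The members that rose did not form a single run in the cluster. From the start of Slfn5 to the end of Slfn14 the cluster spans 335.378 kb (chr11:82951349-83286726). Slfn9, Slfn8 and Slfn10-ps, which were not called higher, lie between Slfn5 and Slfn2, and Slfn3 follows Slfn4. Between Slfn2 and Slfn4 the only member is Slfn1, which was not tested and was above the controls in every KD library. Outside it, 26 protein-coding genes lie within 500 kb, of which 14 were tested. Of those, 3 rose, the chemokine genes Ccl5, Ccl3 and Ccl4 (log2 fold changes 0.53, 0.57 and 0.74), and 2 fell, Lig3 and Heatr6, where 31.7% of all genes tested were called in either direction. Among the nearest tested genes, Nle1 and Rad51d before Slfn5 had log2 fold changes of 0.093 and 0.090, and Ap2b1 beyond Slfn14 had 0.018. These 3 did not pass the test (limma adjusted p between 0.231 and 0.765). The chemokine genes, Lig3 and Heatr6 were named after their values had been seen.

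**Figure D4:**
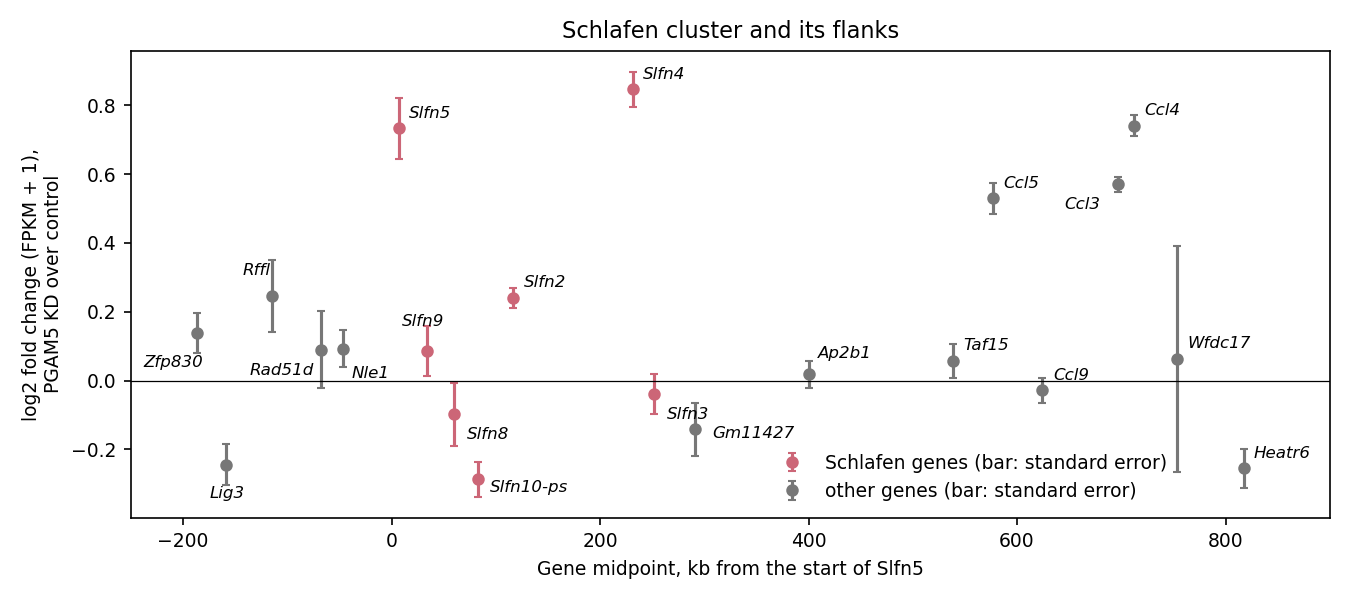
Log2 fold change of PGAM5 KD over control (bar: SE) against position, in kb of the gene's midpoint from the start of Slfn5, for the tested Schlafen genes (red) and other tested genes (grey, protein-coding apart from the pseudogene Gm11427). Slfn9, Slfn8 and Slfn10-ps, near or below 0, lie between Slfn5 at 0.73 and Slfn2 at 0.24, no plotted Schlafen gene lies between Slfn2 and Slfn4 at 0.85, and Nle1, Rad51d and Ap2b1 beside the cluster lie between 0 and 0.1.

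Since several Schlafen genes are interferon targets, the route from interferon to its target genes was examined as a list of 15 genes. Of the 14 tested, 7 rose, none fell and 7 did not pass, with a median log2 fold change of 0.31. Over all genes tested, 16.8% were called higher and 14.9% lower, and the median was 0.013. Irf7, the interferon-induced regulatory factor that amplifies the interferon response, was at 15.2 ± 0.698 FPKM in control and 48.1 ± 2.05 FPKM in KD libraries (SD, n = 3 each, log2 fold change 1.60, limma adjusted p = 7.42e-06). Usp18, which dampens receptor signalling, had a log2 fold change of 1.07, and Stat2, a subunit of ISGF3, had 0.85, the same size as Slfn4. Irf8, the myeloid regulatory factor, had 0.68, close to Slfn5, and all of these passed the test. The receptor subunit gene Ifnar1 (-0.003, limma adjusted p = 0.970) and Irf9, the DNA-binding subunit of ISGF3 (0.024, limma adjusted p = 0.796), did not. Ifnb1, the interferon gene itself, was below the limit at 1.11 ± 0.819 FPKM in control and 0.732 ± 0.457 FPKM in KD libraries (SD, n = 3 each, exact two-sided permutation p = 0.5). Its control libraries held 2.06, 0.661 and 0.615 FPKM, and without control replicate 1 the control mean was 0.638 FPKM, below the KD mean. Ifnar1, Irf9 and Ifnb1 were named after their values had been seen.

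**Figure D5:**
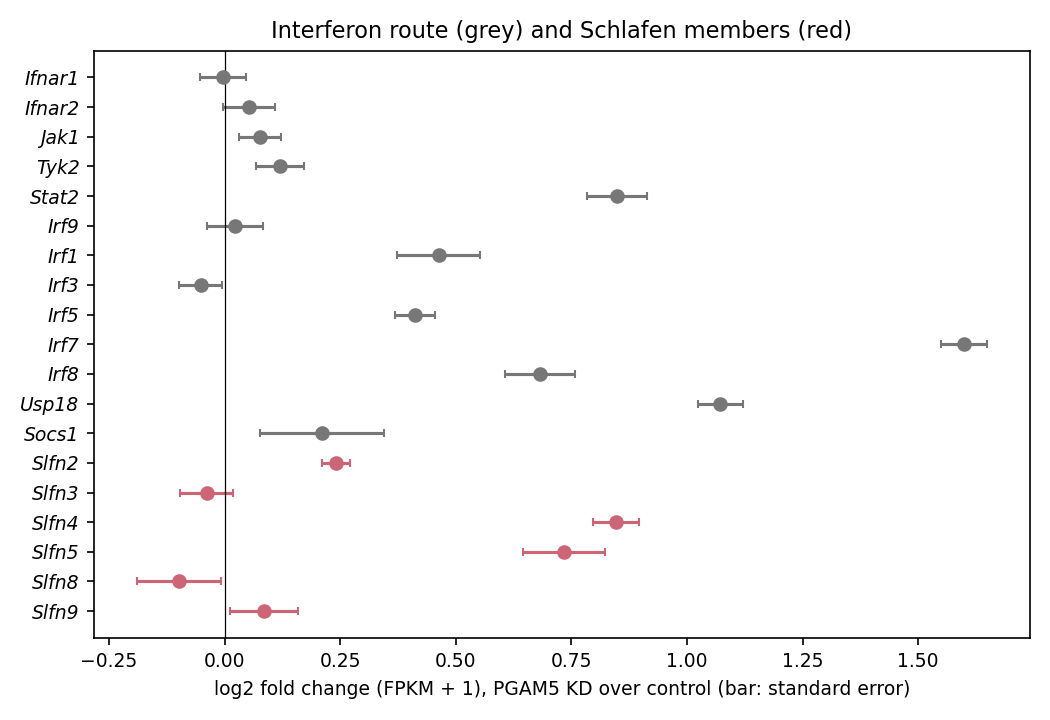
Log2 fold change of PGAM5 KD over control (bar: SE) for tested genes of the interferon route (grey) and the 6 tested Schlafen members (red). Irf7 at 1.60 and Usp18 at 1.07 lie to the right of every Schlafen member, and Slfn4 and Slfn5 lie in the range of Stat2 and Irf8.

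Genes of the processes in which Schlafen proteins act were examined as 2 further lists, to be read against the 31.7% of all genes tested that were called in either direction. Of 14 tested genes for cleavage and protection of transfer RNA and arrest of translation, 1 rose, 3 fell and 10 did not pass, with a median log2 fold change of 0.024. The riser was Eif2ak2, the interferon-induced kinase PKR (0.36, limma adjusted p = 0.00151). Those that fell were Gcn1l1, the activator of the kinase GCN2 (-0.32), Rnh1, the inhibitor of the transfer RNA nuclease angiogenin (-0.23, from 88.5 to 75.5 FPKM), and Elac2, which trims transfer RNA precursors (-0.18). Of 10 genes of the replication stress response in which SLFN11 acts, all tested, Rpa2 of the single-strand binding complex rose (0.16, limma adjusted p = 0.046), the licensing factor gene Cdt1 fell (-0.22, limma adjusted p = 0.00327), and 8 did not pass.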

How the data were processed

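PolyA RNA of 3 control and 3 PGAM5 KD samples was sequenced. The authors deposited 1 table of FPKM per library; the submitters' processing notes name HISAT2 2.0.5, featureCounts 1.5.0-p3 and the mm10 build. The annotation release and strand setting are not given in the sources used here. Exon lengths and positions came from GENCODE M21 (GRCm38), which held 54495 of 54532 gene IDs.

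FPKM times exon length gave whole fragments, within 0.01, for 96.8% to 97.1% of values above 0 and below 1000 fragments. Genes with a mean of at least 1 FPKM were tested with limma 3.58.1 in R 4.3.3 (trended eBayes, log2(FPKM + 1), group as the only term, two-sided, Benjamini-Hochberg over 10540 genes). The pseudocount understates changes of low genes. Exact permutation tests over the 6 libraries cannot go below p = 0.1. Coding sequences were aligned with blastn 2.17.0. Figures used Python 3.11.15 and matplotlib 3.10.9. No protein sequences were used.

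Named were all members, Pgam5, the other Schlafen genes, up to 5 called genes per list by size of change, the 2 nearest tested neighbours on each side and the 3 genes most like each member. Some genes that this rule names are not reported here. The members and lists were chosen with earlier results of these data known. Alternatives covered pseudocount, filter, scaling, model, fragments, coding genes, replicate block and leaving out each library. Poisson intervals cover counting error only.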

Additional observations from a re-analysis of the deposited data

How the results depend on the processing

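The 3 Schlafen calls (3 higher, 0 lower) were made under every alternative: pseudocount 0.1, no filter, a filter of 5 FPKM, TPM scaling, quantile normalization, median centring, no trend, array weights, voom on recovered fragments, coding genes only, replicate block and each library left out. Slfn8 was not tested with the filter of 5 FPKM. Replicate numbers did not pair the libraries (correlations of same-numbered libraries -0.020, 0.016 and -0.052), and libraries did not all correlate best with their own number. With the replicate block, 1440 genes were higher and 1212 lower, and limma adjusted p was 0.0093 for Slfn2, 0.0017 for Slfn4 and 0.0071 for Slfn5. Without 1 library, log2 fold changes ranged from 0.22 to 0.25 for Slfn2, 0.80 to 0.87 for Slfn4, 0.67 to 0.81 for Slfn5, -0.08 to -0.0064 for Slfn3, -0.19 to -0.028 for Slfn8 and 0.03 to 0.15 for Slfn9, and the log2 difference of the Slfn8 and Slfn9 sum from -0.037 to 0.063. With TPM scaling 1084 genes were higher, against 1771, the log2 difference of the Slfn3 and Slfn4 sum was 0.57, and that of all 7 members was 0.23. Of the genes, 139 passed both thresholds, 261 with pseudocount 0.1, 76 with the filter of 5 FPKM and 283 with voom. Counted as fragments, not per length, the KD minus control differences in share were -4.96 percentage points for Slfn2, -1.53 for Slfn3, 7.12 for Slfn4, 2.08 for Slfn5, -1.12 for Slfn8 and -1.64 for Slfn9. Slfn1, with 0 to 12 fragments per library, was too low for a test across genes.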

Other observations

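The genes whose levels followed each member most closely over the 6 libraries were, for Slfn4, Apol9a (Pearson r = 0.999), Pgk1 (0.998) and Spidr (0.998). For Slfn5 they were Elk3, Acsl4 and Mrpl19 (r = 0.997 or more), and for Slfn2 they were Eef1a1 (0.999), Lyn and Fxr1 (0.997 each). Likeness to a called member was more frequent than to the other members, since the libraries form 2 groups. Of the 10540 genes tested, members left out, 658 had r above 0.95 with Slfn4, 593 with Slfn2 and 461 with Slfn5. Negative correlations were not counted. For members that did not pass the test there were fewer, 6 such genes for Slfn3 (Sdad1, Kbtbd4 and Bahd1 leading). There were 18 for Slfn8 (Dpy19l1, Cul4b and Ccdc84) and 17 for Slfn9 (Hcst, Aptx and Hccs). These are descriptions over 6 libraries, with no test.

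Other transcripts inside the cluster were noted after their values had been seen. Gm27598, a 63-base microRNA gene within Slfn10-ps, had 9, 10 and 9 fragments in control and 0, 1 and 4 in KD libraries (limma adjusted p = 0.00753), the same direction as its host. Gm20234, antisense to Slfn2, had 18, 29 and 17 fragments in control and 14, 15 and 7 in KD libraries, against 5668 or more for Slfn2 (limma adjusted p = 0.104). Gm11425, a processed pseudogene between Slfn8 and Slfn10-ps, was at 10.8 ± 1.17 FPKM in control and 13.0 ± 0.414 FPKM in KD libraries (SD, n = 3 each, log2 fold change 0.25, limma adjusted p = 0.0456). In all, 16 other annotated genes lie within the cluster, of which 7 were at 0 in every library and 6 were tested.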
